A study of Mus musculus with 36 samples.

Results

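The comparison described here is that of high fat diet with normal chow in mouse liver at ZT20, a point 8 h into the dark phase and so late in the active phase of these night-active animals. Its 6 samples, of 36 in the series, were chosen by their labels: 3 livers of mice on the high fat diet and 3 of mice on normal chow, all harvested at ZT20. ZT, or Zeitgeber time, is given in hours since the lights came on. In the series 3 samples of each diet were taken every 4 h, at 6 times from ZT0 on. All groups were C57BL/6J mice of the inbred JAX stock, 16 weeks old, kept under 12 h of light and fed ad libitum. The high fat diet drew 60% of its calories from fat and was eaten for 10 weeks. The sex of the animals, and what else set the diets apart, was not used here. RNA was measured on whole-transcript Affymetrix arrays, 1 array per sample, and every level below is log2(intensity + 16). A diet difference is high fat diet minus chow on that scale, so a difference of 1 is 2-fold, and the offset understates the change of dim genes. The labels number the samples without saying how the animals were kept apart, so a p-value measures the spread between these samples.

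Liver works on a daily schedule. Its cells carry a clock in which CLOCK and BMAL1 (gene Arntl) activate E-box genes, among them the Per, Cry, Nr1d and Bhlhe4 genes, whose products then repress the activators. D-box genes answer to the activators DBP, TEF and HLF and to the repressor NFIL3. Clock and feeding together set when liver burns fat, stores glycogen, makes bile acids and detoxifies. In mice most food is eaten in the dark, and a high fat diet is known to spread feeding into the light and to reshape these daily rhythms.

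The arrays of ZT20 were alike. Log2 values of all genes tested correlated at 0.984 to 0.991 among the high fat diet arrays, at 0.983 to 0.991 among the chow arrays, and at 0.970 to 0.987 between diets. 2 of the 6 arrays varied more around their group means than most: high fat diet sample 2 and chow sample 3 had quality weights of 0.386 and 0.357, the third and second lowest of 36, while high fat diet sample 3 had the highest, 3.61. In chow sample 3 the smooth muscle actin gene Acta2 had a level of 9.84, against 7.17 to 7.73 in the other 5 arrays. Asns had 9.05 there, against 6.31 to 7.35 in the other 5. Tff3 had 9.68 there, but high fat diet sample 2 was close, at 9.31. These genes were chosen after their values were seen. Results that rest on these arrays are given with and without them.

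Tissue markers fitted liver. The 15 hepatocyte genes measured summed to intensities of 61823 to 67502 on high fat diet and of 63291 to 67155 on chow, and none of them passed the test. Of the other 10 marker lists (Kupffer cells, MHC class II, lymphocytes, neutrophils, stellate cells, sinusoidal endothelium, bile duct, red cells, adipocytes, and pancreas, gut and muscle), none held a gene that passed in limma. Of the 119 distinct marker genes tested, hepatocyte genes included, 7 had an unadjusted p under 0.05 in limma, against 13.5% of all genes. The 20 endothelial markers summed to 10601 to 11133 on high fat diet, against 7501 to 10859 on chow, with 19 of 20 differences positive. The 6 class II genes summed to 1125 to 1734 on high fat diet, against 1474 to 2230 on chow, with all 6 differences negative. Over all genes the median difference was 0.01. The 24 stellate cell and matrix genes summed to 10920 to 13297 and to 8712 to 12819, and the 9 adipocyte genes to 1447 to 1594 and to 1429 to 1525, on high fat diet and on chow. The 25 Kupffer cell and macrophage genes summed to 5570, 6751 and 6726 on high fat diet, against 5617 to 5745 on chow. The 6 bile duct genes summed to 564, 743 and 709 on high fat diet, against 515 to 582 on chow. Chow sample 2 alone had the low sums of 7501 (endothelial) and 8712 (stellate), while the other chow arrays had 10377 and 10859, and 12452 and 12819. The part of these markers in the results was not tested. In bulk liver, fewer cells of a type and less RNA per cell cannot be told apart.

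Across the array, high fat diet raised 173 genes and lowered 112 at ZT20. That is 1.24% and 0.803% of 13956 genes tested (2.04% in either direction), at an adjusted p under 0.05 in a limma fit to all 36 arrays. The median size of a called difference was 0.56. Of the called genes, 19 rose and 17 fell by 2-fold or more, and the median over all genes was 0.01. Without any correction for the number of tests, 1879 genes (13.5%) had a p under 0.05. All 3 high fat diet values lay above all 3 chow values for 1254 genes (8.99%) and below them for 910 (6.52%); of the called genes this held for 172 of 173 that rose and 112 of 112 that fell. With each array centred on its median the split was 158 higher and 65 lower, or 70.9% higher among called genes, against 60.7% here. Leaving out single arrays moved the counts: without high fat diet sample 1 they were 172 higher and 64 lower, without high fat diet sample 2 84 and 98, without high fat diet sample 3 76 and 52, and without chow sample 3 61 and 60. Without both samples of low weight, 34 rose and 62 fell.

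Slc17a8, a vesicular glutamate transporter gene, had the largest rise, with levels of 9.57, 10.09 and 10.40 on high fat diet, against 8.06, 8.08 and 6.91 on chow. The groups did not overlap, and the difference was 2.34 ± 0.31 (SE, limma adjusted p = 2e-05), or 5.05-fold. Arrdc3, an alpha-arrestin that helps to sort cell-surface receptors, stood at 10.49, 11.03 and 10.76 on high fat diet, against 9.15, 8.60 and 8.07 on chow, a difference of 2.16 ± 0.24 (SE). Here too every high fat diet liver lay above every chow liver. The melatonin receptor gene Mtnr1a had 7.91, 8.03 and 8.09 on high fat diet, against 6.40, 6.02 and 5.69 on chow, a difference of 1.97 ± 0.17. The diets lay far apart for this gene, though its chow levels of 6.02 and 5.69 were dim. The Mtnr1a difference ran from 1.42 to 2.27 over the alternative settings. Stap1, a signalling adaptor, was higher by 1.96 ± 0.33, with all 3 chow levels under 6.11, the mean level over the 36 arrays that a gene needed to be tested.

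Among the 15 genes that rose most were also Apoa4, Fabp2, Acnat2 and G0s2. Apoa4, an apolipoprotein of triglyceride-rich particles, had 11.66, 11.77 and 12.33 on high fat diet, against 10.29, 10.28 and 9.85 on chow, a difference of 1.78 ± 0.25. Fabp2, a fatty acid binding protein best known from gut, had 10.92, 10.76 and 10.97 on high fat diet, against 9.28, 9.46 and 9.18 on chow, a difference of 1.57 ± 0.14 (limma adjusted p = 3.3e-08). The 2 diets did not overlap for either gene. Acnat2, a peroxisomal acyltransferase that joins fatty acids to amino acids, rose by 1.73 ± 0.32, and G0s2, which inhibits the triglyceride lipase ATGL, by 1.36 ± 0.31. Serpina12, which encodes the adipokine vaspin, had 9.01, 9.69 and 9.64 on high fat diet, against 8.71, 7.99 and 6.60 on chow, so that its chow livers were far apart. Tsc22d1, a transcriptional regulator, rose by 1.45 ± 0.20 and Gpc1, a cell-surface proteoglycan, by 1.24 ± 0.17. The other genes among the 15 with the largest rise were 9030619P08Rik (1.89), 1810055G02Rik (1.32), Nxpe2 (1.31) and 2010003K11Rik (1.25). Of these 15, Serpina12 and 2010003K11Rik lost the call without high fat diet sample 2, without high fat diet sample 3 or without chow sample 3, and 2010003K11Rik without chow sample 2. G0s2 lost it without high fat diet sample 1, without high fat diet sample 3 or without chow sample 2.

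**Figure D1:**
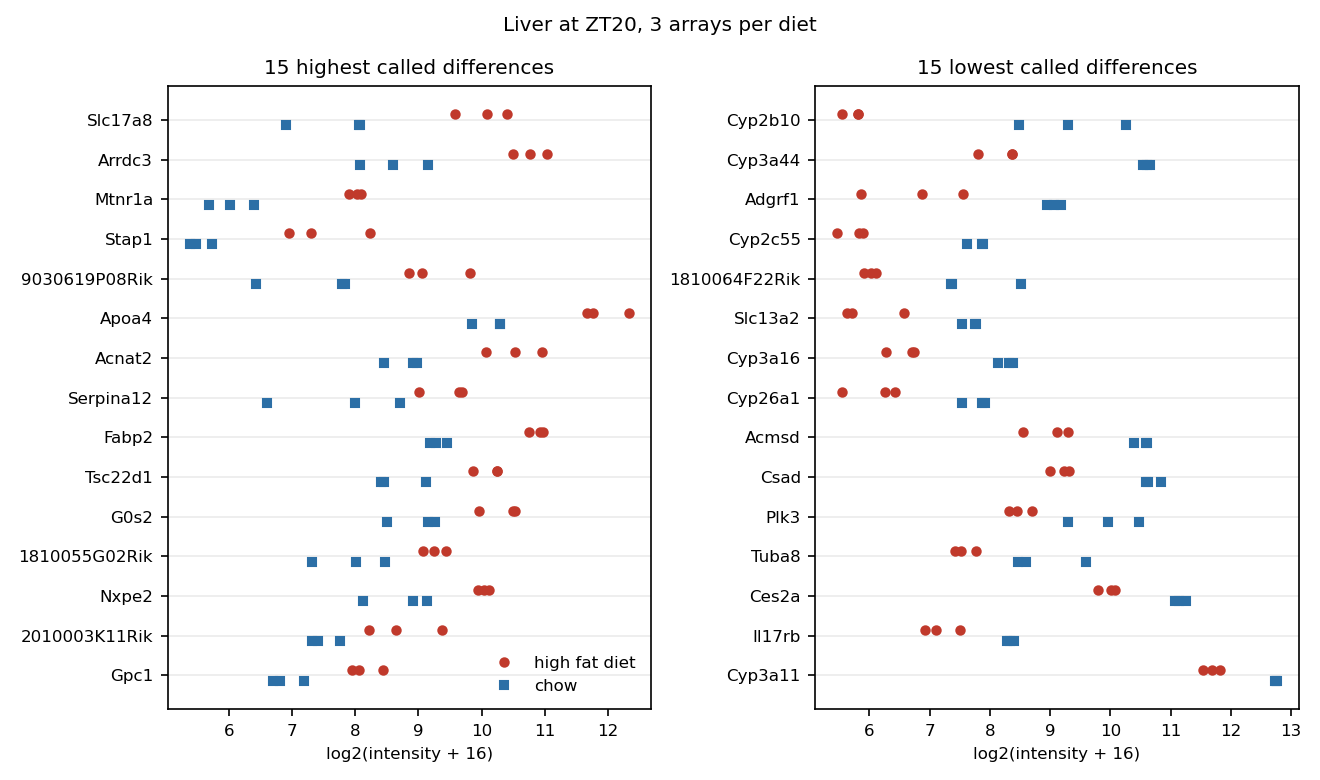
Levels at ZT20 of the 15 genes that rose most (left panel) and the 15 that fell most (right panel), as log2(intensity + 16) on the horizontal axis, 1 symbol per array, with high fat diet as red circles above chow as blue squares (3 arrays each). For Cyp2b10 the high fat diet arrays lie at 5.54 to 5.82 and the chow arrays at 8.49 to 10.25, and for Arrdc3 at 10.49 to 11.03 and at 8.07 to 9.15.

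The genes that fell most were led by cytochrome P450 genes of drug metabolism. Cyp2b10, the textbook target of the xenobiotic receptor CAR, had 5.54, 5.80 and 5.82 on high fat diet, against 9.29, 10.25 and 8.49 on chow. The difference was -3.62 ± 0.34 (SE, limma adjusted p = 4.43e-08). All 3 high fat diet levels were under 6.11, so the size of the difference is measured against dim values, and it ran from -4.09 to -2.80 over the alternatives. Cyp3a44 had 7.80, 8.36 and 8.37 on high fat diet, against 10.61, 10.66 and 10.54 on chow, a difference of -2.43 ± 0.28. Cyp2c55 had 5.47, 5.83 and 5.89 on high fat diet, against 7.87, 7.89 and 7.63 on chow, a difference of -2.07 ± 0.17; it too was dim on high fat diet, and its difference ran from -2.45 to -1.42 over the alternatives. For these P450 genes no high fat diet liver reached the level of any chow liver. In all, 7 of the 112 genes that fell had every high fat diet level under 6.11, and 2 of the 173 that rose every chow level. Cyp3a16 fell by 1.71 ± 0.23 and Cyp3a11, the main mouse counterpart of human CYP3A4, by 1.07 ± 0.18. Cyp26a1, which breaks down retinoic acid, differed by -1.70 ± 0.46 with an adjusted p of 0.0484 in limma, and lost the call when any 1 of the 6 arrays was left out, or any of 22 of the 30 arrays of the other times. Genes of the Cyp2b and Cyp3a families share much sequence, and how far their probe sets share signal was not tested.

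Among the other genes with a large fall were Slc13a2, Csad and Acmsd. Slc13a2, a sodium-coupled citrate transporter, had 5.71, 6.58 and 5.64 on high fat diet, against 7.76, 7.54 and 7.77 on chow, a difference of -1.72 ± 0.21. Its high fat diet levels of 5.71 and 5.64 were under 6.11, and the difference ran from -2.02 to -1.19 over the alternatives. Csad, an enzyme of taurine synthesis, had 8.996, 9.308 and 9.235 on high fat diet, against 10.626, 10.585 and 10.837 on chow, a difference of -1.50 ± 0.30. Acmsd, which draws tryptophan breakdown away from NAD, had 9.11, 9.30 and 8.55 on high fat diet, against 10.59, 10.39 and 10.62 on chow, a difference of -1.54 ± 0.25. The diets did not overlap for any of these genes. Ces2a, a carboxylesterase, fell by 1.20 ± 0.13, Il17rb, an interleukin receptor subunit, by 1.16 ± 0.14 and Tuba8, an alpha-tubulin, by 1.32 ± 0.20. Adgrf1, an adhesion receptor, differed by -2.30 ± 0.46, 1810064F22Rik, dim on high fat diet, by -1.73 ± 0.24 and Plk3, a stress-responsive kinase, by -1.42 ± 0.37. Plk3 lost the call when any 1 array of ZT20 other than chow sample 1 was left out. Adgrf1 lost it without high fat diet sample 3, and Csad without both samples of low weight.

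In the clock, 3 repressor genes were lower on high fat diet at ZT20, and no activator passed the test. Of 13 genes of the repressor list tested, 3 fell and none rose, against 0.803% and 1.24% of all genes. That list counts the kinase genes Csnk1d and Csnk1e with the repressors. Of 3 activators none passed in limma, nor had one an unadjusted p under 0.05. The 3 that fell were Per3, Bhlhe41 and Nr1d2, which encodes REV-ERB beta. Their promoters are shown because the 3 genes fell together. Each runs 250 bases up to the transcription start on the gene's own strand, taken from RefSeq (GRCm38.p6): Per3 at chr4:151044666-151044915, Bhlhe41 at chr6:145865421-145865670 and Nr1d2 at chr14:18239107-18239356, all on the minus strand. Capitals mark a D-box or an E-box.
Per3: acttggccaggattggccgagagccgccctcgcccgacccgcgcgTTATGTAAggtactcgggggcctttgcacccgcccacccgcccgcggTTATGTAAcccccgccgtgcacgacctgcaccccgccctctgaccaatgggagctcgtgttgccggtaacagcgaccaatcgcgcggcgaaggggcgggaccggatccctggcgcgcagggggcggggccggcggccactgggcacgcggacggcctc
Bhlhe41: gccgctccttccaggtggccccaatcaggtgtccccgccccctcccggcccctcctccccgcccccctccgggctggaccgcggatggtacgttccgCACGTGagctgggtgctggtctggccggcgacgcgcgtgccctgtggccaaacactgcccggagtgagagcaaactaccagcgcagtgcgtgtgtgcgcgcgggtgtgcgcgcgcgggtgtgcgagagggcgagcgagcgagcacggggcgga
Nr1d2: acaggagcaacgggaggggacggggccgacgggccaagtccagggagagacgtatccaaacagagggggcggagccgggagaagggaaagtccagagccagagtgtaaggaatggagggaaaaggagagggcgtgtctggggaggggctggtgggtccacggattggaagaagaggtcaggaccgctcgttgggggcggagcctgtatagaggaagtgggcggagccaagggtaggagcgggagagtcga
The letters searched, on both strands, were CACGTG for the E-box and TTANGTAA for the D-box, and no 2 matches overlapped in the promoters shown. Per3 held 2 D-boxes, 205 to 198 and 158 to 151 bases before the start, and Bhlhe41 held 1 E-box, 153 to 148 bases before it. Nr1d2 held no match in this window. Of 32851 mouse promoter windows of this length, 6.02% held the E-box and 2.06% the D-box. Of 37 promoter windows of the 26 clock and clock output genes found in the table, of 31 looked up, 24.3% held the E-box and 5.41% the D-box.

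Per3, a period gene, had levels of 6.28, 6.73 and 6.50 on high fat diet, against 7.06, 7.39 and 7.16 on chow, a difference of -0.70 ± 0.14 (SE, limma adjusted p = 0.00488). Bhlhe41, an E-box repressor also called DEC2, had 5.22, 5.69 and 5.72 on high fat diet, against 6.39, 6.08 and 6.33 on chow, a difference of -0.72 ± 0.17. Its high fat diet levels and 1 chow level were under 6.11, and the difference ran from -0.98 to -0.40 over the alternatives. Nr1d2 had 7.74, 8.02 and 7.56 on high fat diet, against 8.34, 8.82 and 8.21 on chow, a difference of -0.68 ± 0.17. The diets were apart in each of these genes. Per2 missed the threshold, with 7.74, 8.19 and 8.06 on high fat diet, against 8.37, 8.29 and 8.73 on chow, a difference of -0.47 ± 0.13 and a limma adjusted p of 0.0576. Per1 had a difference of -0.42 ± 0.21 and Cry2, a cryptochrome, of -0.33 ± 0.11.

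The remaining clock genes lay near 0. Cry1 differed by -0.04 ± 0.12, the kinase genes Csnk1d and Csnk1e by -0.04 ± 0.07 and 0.02 ± 0.12, Nr1d1 by 0.11 ± 0.26, Bhlhe40 by 0.13 ± 0.20, Nfil3 by 0.12 ± 0.14 and Ciart, at -0.30 ± 0.28, was uncertain. The activators differed by 0.01 ± 0.20 (Arntl), 0.11 ± 0.10 (Clock) and 0.08 ± 0.10 (Rora). Ciart was read from the brighter of 2 probe sets, and the other gave -0.15. The median over the 13 genes of the repressor list was -0.30, against 0.01 over all genes. Quantile normalization called 5 of the 13 and median centring 2. Per3 kept its call in all 49 alternative settings. Bhlhe41 lost its call without high fat diet sample 1, without chow sample 1 or without chow sample 3, and Nr1d2 without high fat diet sample 1, without high fat diet sample 3 or without chow sample 2. Leaving out 1 array of ZT20 gave 1 to 5 repressors that fell, the lowest count being without high fat diet sample 1 and the count of 5 without high fat diet sample 2, and 2 fell without both samples of low weight.

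**Figure D2:**
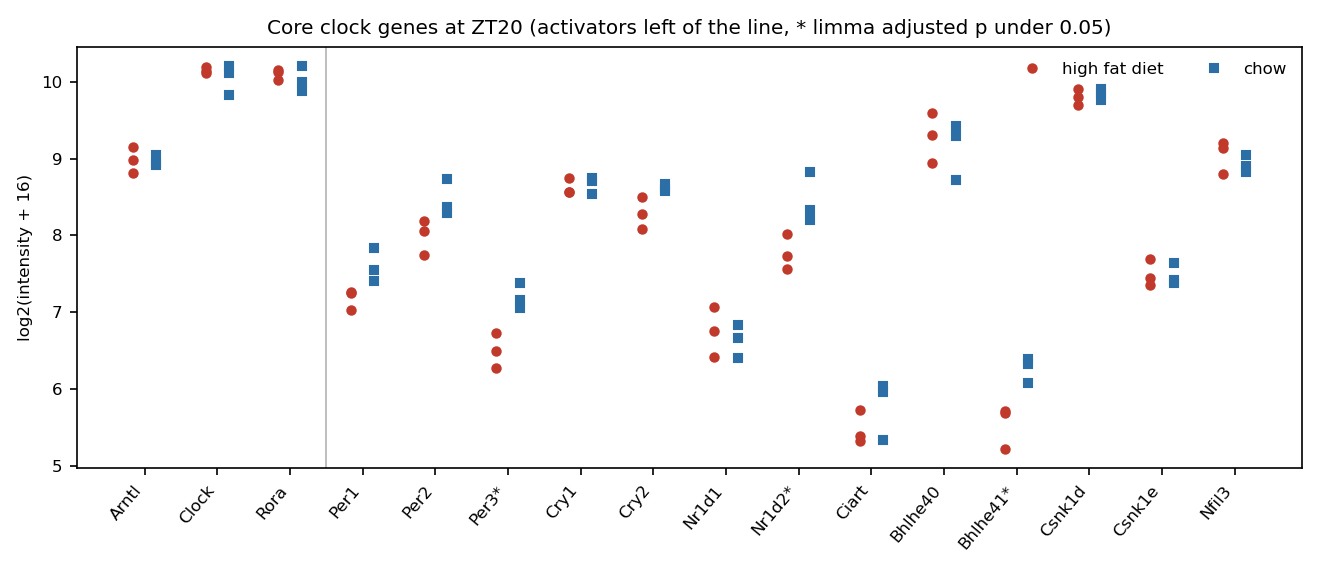
Levels at ZT20 of the 16 core clock genes tested, as log2(intensity + 16), with 3 high fat diet arrays (red circles, left) and 3 chow arrays (blue squares, right) per gene; activators stand left of the line and an asterisk marks a limma adjusted p under 0.05. Per3, Nr1d2 and Bhlhe41 show high fat diet arrays below all chow arrays.

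Among 15 clock output genes tested, 2 fell and none rose, against 0.803% and 1.24% of all genes. Upp2, a uridine phosphorylase with a strong daily rhythm in liver, had 10.37, 10.39 and 10.01 on high fat diet, against 11.13, 11.22 and 11.13 on chow, a difference of -0.90 ± 0.13. Tspan4, a tetraspanin, had a difference of -0.51 ± 0.10. The D-box activator Dbp, named after its values were seen, had 6.51, 6.60 and 6.74 on high fat diet, against 7.25, 7.14 and 6.97 on chow, a difference of -0.50 ± 0.17 that missed the threshold (limma adjusted p = 0.134). The median over the output genes was -0.29, with 11 of 15 negative. Single arrays left out gave 2 or 3 genes that fell.

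The fatty acid lists moved upward in part. Of 36 genes of fatty acid oxidation tested, many of them PPARA targets, 5 rose and none fell, against 1.24% and 0.803% of all genes. The median difference was 0.20. Bdh1, which makes the ketone body 3-hydroxybutyrate, had 10.58, 10.68 and 10.83 on high fat diet, against 10.06, 10.12 and 9.85 on chow, a difference of 0.68 ± 0.09 (limma adjusted p = 2.9e-05). Cpt1a, the carnitine transferase that lets fatty acids into mitochondria, had 11.71, 11.80 and 11.79 on high fat diet, against 11.32, 11.23 and 11.11 on chow, a difference of 0.54 ± 0.08. Both were apart between diets by more than the spread within either. Etfdh, which passes electrons from fatty acid oxidation to ubiquinone, rose by 0.33 ± 0.07. The carnitine carrier Slc25a20 and Ppara itself, named after their values were seen, rose by 0.40 ± 0.10 and 0.47 ± 0.12. The other 31 members did not pass, among them the member with the largest difference of the list, 1.29. The PPARA targets Cyp4a10, Cyp4a14 and Pdk4, named after their values were seen, had differences of -0.15, -0.07 and 0.18. Without high fat diet sample 3, or without chow sample 3, 3 genes of the list rose, and without both samples of low weight 2 did; Etfdh then lost its call.

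Of 23 genes of fatty acid uptake and the lipid droplet (median 0.19), 5 rose and none fell, against 1.24% and 0.803% of all genes. Beside Fabp2 and G0s2 these were Mgll, Plin2 and Fitm1. Plin2, which coats lipid droplets, had 11.80, 11.82 and 11.92 on high fat diet, against 11.26, 11.27 and 11.29 on chow, a difference of 0.57 ± 0.10. The 3 chow levels were almost equal. Mgll, which cleaves monoacylglycerol, rose by 0.72 ± 0.11, and Fitm1, a droplet-forming protein named after its values were seen, by 0.87 ± 0.19. Cd36, the fatty acid translocase, had 9.96, 9.80 and 10.54 on high fat diet, against 9.34, 9.30 and 9.18 on chow, a difference of 0.82 ± 0.34 with a limma adjusted p of 0.267; it too was named after its values were seen. Leaving out single arrays gave 3 to 5 genes that rose, the 3 without high fat diet sample 3, and 1 that fell without chow sample 2.

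Synthesis of fat and of cholesterol showed few calls. Of 29 genes of fatty acid synthesis and desaturation, 2 rose and 1 fell, against 1.24% and 0.803% of all genes. The 2 that rose were Insig2 and the pyruvate kinase gene Pklr, which is also counted among the genes of sugar use below. Insig2, which holds the SREBP complex in the endoplasmic reticulum, had 12.16, 12.17 and 12.18 on high fat diet, against 11.29, 11.28 and 11.08 on chow, a difference of 0.95 ± 0.14. Elovl1, an elongase of very long chains, had 9.57, 9.77 and 9.80 on high fat diet, against 10.37, 10.29 and 10.23 on chow, a difference of -0.58 ± 0.10. Each of these genes had diets that did not overlap. None of the 21 cholesterol genes passed in limma (1 had an unadjusted p under 0.05); their median was -0.14, 15 of 21 were negative, and Lss, which closes the sterol ring, had the smallest p at -0.49 ± 0.21.

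Bile acid and lipoprotein genes were called in ones and pairs. Cyp7a1, whose enzyme limits the rate at which cholesterol turns into bile acids, had 11.01, 11.17 and 11.23 on high fat diet, against 12.01, 11.99 and 11.71 on chow, a difference of -0.76 ± 0.16 (limma adjusted p = 0.00564). Abcb4, the phospholipid exporter of bile, had 11.14, 11.08 and 11.14 on high fat diet, against 10.66, 10.76 and 10.64 on chow, a difference of 0.43 ± 0.09. These were the only calls among 27 genes of bile acid synthesis and transport. Over all genes 1.24% rose and 0.803% fell. Abcb4 lost its call without both samples of low weight. Of 20 lipoprotein genes 2 rose: Apoa4 and the endothelial lipase gene Lipg, by 0.81 ± 0.21. Lipg lost its call without high fat diet sample 1, 2 or 3, and without chow sample 2 or 3.

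Genes of sugar use rose in part. Of 26 genes of glycolysis, fructose and glycogen, 7 rose and none fell, against 1.24% and 0.803% of all genes. The median was 0.18. Pklr, the liver pyruvate kinase, had 11.79, 11.83 and 11.77 on high fat diet, against 11.03, 10.74 and 10.62 on chow, a difference of 1.00 ± 0.17 (limma adjusted p = 0.000845). Khk, the ketohexokinase that starts fructose use, had 11.39, 11.45 and 11.57 on high fat diet, against 10.91, 10.71 and 10.57 on chow, a difference of 0.74 ± 0.13. Tkfc, the next but one enzyme of that route, had 11.51, 11.70 and 11.78 on high fat diet, against 11.08, 11.04 and 10.98 on chow, a difference of 0.63 ± 0.12. None of the 3 overlapped between diets. The other 4, named after their values were seen, were the glucose transporter Slc2a2 (0.51), glycogen phosphorylase Pygl (0.30), branching enzyme Gbe1 (0.58) and lactate dehydrogenase Ldha (0.40). Without 1 array of ZT20, 3 to 6 genes rose, the 3 without chow sample 3. Without both samples of low weight 1 did, and Khk and Tkfc lost their calls.

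Gluconeogenesis and insulin signalling changed in single genes, while over all genes 1.24% rose and 0.803% fell. Of 18 genes of gluconeogenesis and fasting signals, pyruvate carboxylase Pcx rose by 0.38 ± 0.09 and Sik1, a kinase induced by cAMP, fell by 0.86 ± 0.21. Pck1 and G6pc, the classical enzymes of the pathway named after their values were seen, had differences of -0.22 and -0.13 and did not pass. Of 26 genes of insulin signalling and the IGF axis, the adaptor Grb14 rose by 0.29 ± 0.08, while Grb10, a related adaptor, fell by 0.56 ± 0.13 and Igfbp2, an IGF binding protein, by 0.92 ± 0.24. Single arrays decided these calls: Pcx lost its call without high fat diet sample 3, chow sample 1 or chow sample 3, and Sik1 without any high fat diet sample or without chow sample 3. Grb10 lost it without high fat diet sample 1 or 3 or without chow sample 3, Igfbp2 without high fat diet sample 2 or 3 or without chow sample 2 or 3, and Grb14 without high fat diet sample 2 or 3, without chow sample 3 or without any of 17 of the 30 arrays of the other times.

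Several detoxification genes fell. Of 22 targets of the xenobiotic receptors CAR and PXR tested (median -0.31), 8 fell and none rose, against 0.803% and 1.24% of all genes. They were Cyp2b10, Cyp2c55, Ces2a, Cyp3a44, Cyp3a16, Cyp3a11, Cyp3a25 and Cyp2c29. Cyp2b9, named after its values were seen, had 9.65, 8.35 and 10.22 on high fat diet, against 7.51, 6.12 and 5.86 on chow, a difference of 2.91 ± 0.95 that did not pass (limma adjusted p = 0.118). Its arrays within each diet were far apart. The genes of the receptors themselves did not pass: Nr1i3 (CAR) had a difference of 0.28 and Nr1i2 (PXR) of 0.00. The count was 7 or 8 without any 1 array of ZT20 and 7 without both samples of low weight.

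A share of the glutathione transferases fell as well. Of 30 genes of glutathione use and NRF2 targets (list median -0.09), 5 fell and none rose, against 0.803% and 1.24% of all genes. The 5 are among the 11 transferases tested, a grouping made after their values were seen. Gsta4, which conjugates products of lipid peroxidation, had 10.00, 10.09 and 9.74 on high fat diet, against 10.80, 10.79 and 10.92 on chow, a difference of -0.89 ± 0.16. Gstm1 fell by 0.56 ± 0.12 and Gstt2 by 0.61 ± 0.14, and Gstm3 and Gstm4, named after their values were seen, by 0.65 and 0.61. Nqo1 and Hmox1, common NRF2 targets, had differences of -0.32 and -0.06. The Gstm genes are close relatives, and how far their probe sets read each other was not tested. Gstt2 lost its call without high fat diet sample 2 or 3 or chow sample 2 or 3. Without chow sample 3, 2 genes of the list fell, and without both samples of low weight 1 did.

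Of 20 genes that differ between the sexes in mouse liver, 5 fell and none rose, against 0.803% and 1.24% of all genes. Of the 5, Cyp3a44 and Cyp3a16 are known as female-biased, and Cyp4a12a and Cyp4a12b as male-biased. Cyp4a12b had 11.49, 11.68 and 11.46 on high fat diet, against 12.39, 12.46 and 12.43 on chow, a difference of -0.88 ± 0.12, and Cyp4a12a had -0.78 ± 0.11. These 2 genes are near copies. Ugt2b38, the last of the 5, fell by 0.60 ± 0.14. Single arrays left out gave 4 or 5 genes that fell.

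Stress, immune and growth lists held between 0 and 3 calls each, while over all genes 1.24% rose and 0.803% fell. Of 24 interferon-stimulated genes 3 rose and none fell, with a median of 0.30 and 23 of 24 differences positive. Ifit1, an antiviral protein, had 8.11, 8.21 and 8.53 on high fat diet, against 7.83, 7.56 and 7.08 on chow, a difference of 0.79 ± 0.18. Ifit3 rose by 0.66 ± 0.17 and Iigp1 by 0.55 ± 0.14. Without chow sample 3, or without high fat diet sample 3, none of the 24 passed in limma, and without high fat diet sample 2 1 did. Of 19 immediate early genes, Klf10 rose by 0.86 ± 0.20 and Dusp6 by 0.72 ± 0.20; neither passed without chow sample 2, chow sample 3 or high fat diet sample 3, nor Dusp6 without high fat diet sample 1 or 2. Among 31 genes of the amino acid response Atf5, a stress transcription factor, rose by 0.51 ± 0.11, while the arginine transporter Slc7a2 fell by 0.54 ± 0.13 and Cth, which makes cysteine, by 0.40 ± 0.11. Slc7a2 and Cth lost their calls without high fat diet sample 3 or without chow sample 3, Cth also without high fat diet sample 2 or chow sample 2, and Atf5 without chow sample 2. Single arrays of the other times ended the call of Dusp6 in 18 cases and that of Cth in 16, of 30.

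Further metabolic and protein lists held 1 to 3 calls each. In the heat shock list Hspb1, a small heat shock protein and the single call among 19 genes, had 8.94, 8.87 and 9.06 on high fat diet, against 9.81, 9.80 and 9.80 on chow, a difference of -0.85 ± 0.20. Its second probe set gave -0.84. Of 33 genes of amino acid breakdown and the urea cycle 2 rose and 1, Csad, fell; Gldc and Amt, which encode proteins of the glycine cleavage system, rose by 0.35 ± 0.08 and 0.37 ± 0.09. Of 21 genes of the NAD and kynurenine route 2 fell, Acmsd and Afmid, the formamidase of that route, which fell by 0.41 ± 0.10. Of 27 genes of purine and pyrimidine metabolism 2 fell, Upp2 and Aprt, which salvages adenine, by 0.70 ± 0.11. Single calls were those of Idh2 among 19 citrate cycle genes (-0.50 ± 0.12), C2 among 30 of coagulation and complement (-0.65 ± 0.11), Orm1 among 30 acute phase genes (-0.40 ± 0.11) and Derl2, which exports misfolded proteins, among 28 endoplasmic reticulum chaperones (0.42 ± 0.11). Over all genes 1.24% rose and 0.803% fell. Orm1 lost its call without any 1 of the 6 arrays of ZT20 and without 12 of the 30 others. Of the 6 arrays of ZT20, leaving out 1 ended the call of Gldc in 1 case, of Hspb1 and Afmid in 3 and of Idh2, Amt and Derl2 in 4.

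No gene passed among 32 cytosolic ribosomal proteins, 36 genes of ribosome biogenesis, 34 proteasome subunits, 39 subunits of oxidative phosphorylation, 19 glucocorticoid targets, 18 cytokine and nuclear factor kappa B genes and 21 cell cycle genes. Of the 199 distinct genes of these lists, 21 had an unadjusted p under 0.05 in limma, against 13.5% of all genes. The lists differed in this. The count was 8 of 32 ribosomal proteins, 4 of 19 glucocorticoid targets, 4 of 34 proteasome subunits and 3 of 36 biogenesis genes. It was 1 of 18 cytokine genes, 1 of 39 subunits of oxidative phosphorylation and 0 of 21 cell cycle genes. All 32 ribosomal protein genes had negative differences, from -0.61 to -0.04, with a median of -0.17, which was -0.13 after quantile normalization and -0.12 after median centring. Myc, the gene with the smallest p in the biogenesis list, had 6.600, 6.866 and 6.679 on high fat diet, against 7.004, 9.541 and 9.152 on chow, a difference of -1.85 ± 0.56 with a limma adjusted p of 0.0809. Chow sample 1 was close to the high fat diet livers.

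**Figure D3:**
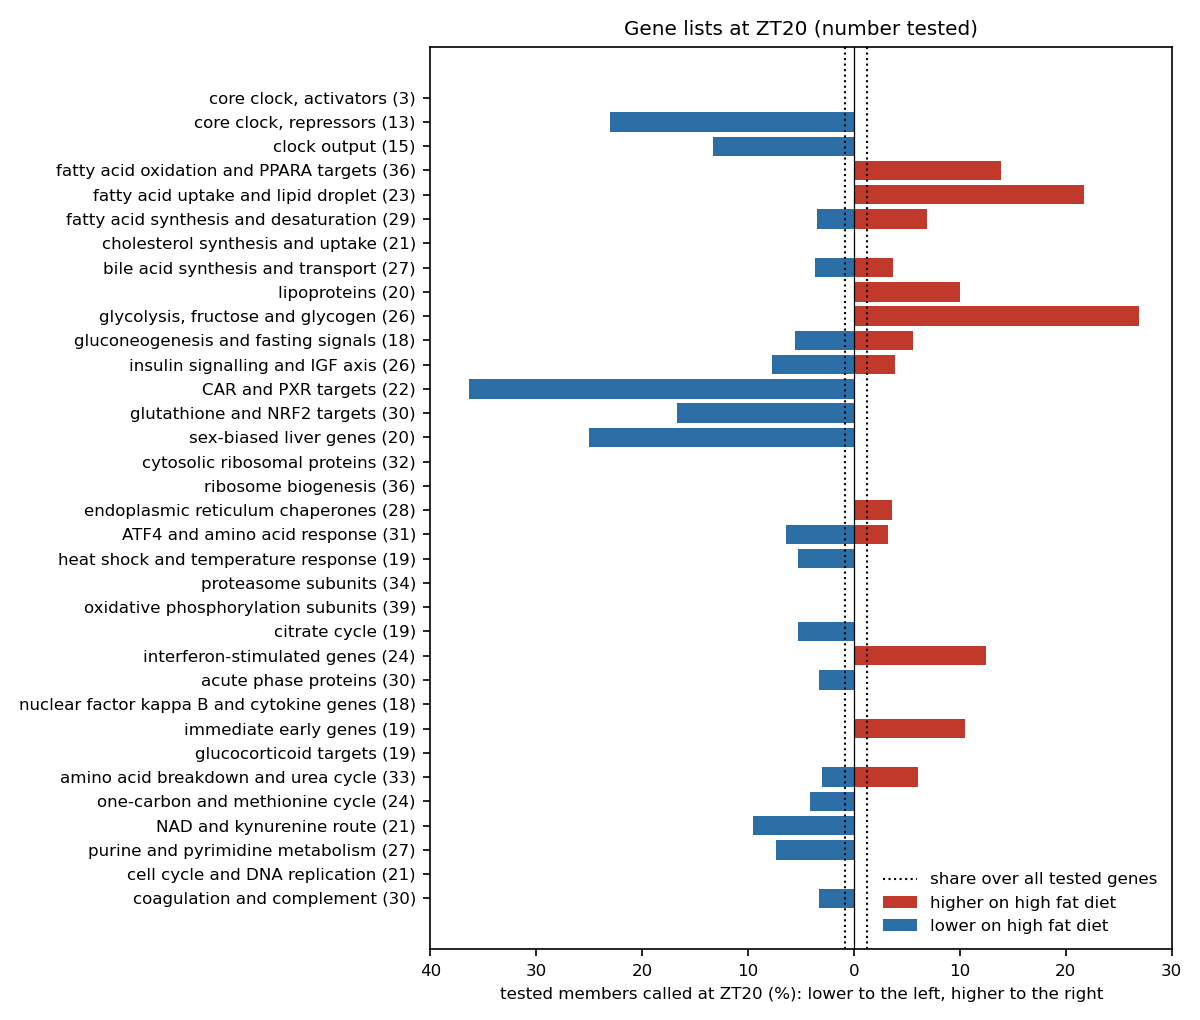
Share of the tested genes of each list that passed the limma test at ZT20, with genes higher on high fat diet to the right and genes lower on it to the left; the number tested stands in brackets and dotted lines mark the shares over all genes, 1.24% and 0.803%. CAR and PXR targets reach left with 8 of 22, and genes of sugar use reach right with 7 of 26.

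The next question was what ZT20 shared with the other times. At the other 5 times the same fit called 993 genes (7.12%) at ZT0, 515 (3.69%) at ZT4, 108 (0.774%) at ZT8, 759 (5.44%) at ZT12 and 310 (2.22%) at ZT16. Each time has its own chow arrays, so the comparisons share no samples, only the fitted spread. Of the 285 genes called at ZT20, 203 (71.2%) had the same sign at all the other times, against 1989 (14.3%) of all genes. Averaged over the other 5 times, 247 (86.7%) of them passed in the same direction; that average, over 30 arrays, called 2967 (21.3%) of all genes in either direction. The same direction was called at no other time for 76, at 1 for 58, at 2 for 44, at 3 for 47, at 4 for 40 and at all 5 for 20.

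ZT20 shared most calls with ZT12 and the closest pattern with ZT16. The calls common with ZT12 numbered 148, or 51.9% of the calls at ZT20 and 19.5% of those at ZT12. With ZT16 they numbered 113 (39.6% and 36.5%), with ZT4 126 (44.2% and 24.5%), with ZT0 107 (37.5% and 10.8%) and with ZT8 53 (18.6% and 49.1%). Across all 13956 genes, which are not independent replicates, Pearson's r of the ZT20 differences was 0.56 with those at ZT16, 0.53 with ZT12, 0.51 with ZT4, 0.33 with ZT0 and 0.31 with ZT8. The points share the normalization of the authors.

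The genes with the largest differences at ZT20 were mostly not limited to it. Of the 30 genes with the largest rises and falls, 28 had the same sign at all 6 times, and 11 were called at each, among them Stap1, Apoa4, Fabp2, Gpc1, Cyp2b10, Cyp3a44, Cyp2c55, Slc13a2, Csad, Ces2a and Cyp3a11. The exceptions in sign were Arrdc3, with -0.25 ± 0.24 at ZT8, and Plk3, with 0.21 ± 0.37 at ZT4. For 13 of the 30 the difference at ZT20 was the largest in size of the 6, including Slc17a8, Mtnr1a, Serpina12, Nxpe2, Cyp2b10, Acmsd and Il17rb. The 30 were picked by their size at ZT20, which favours that time, so this count cannot show a stronger effect there. Serpina12 and Plk3 were called at no other time, where the differences of Serpina12 ran from 0.22 at ZT16 to 0.78 at ZT8. A call at 1 time and not at another does not show that the times differ, and the contrast that tests this is given next.

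**Figure D4:**
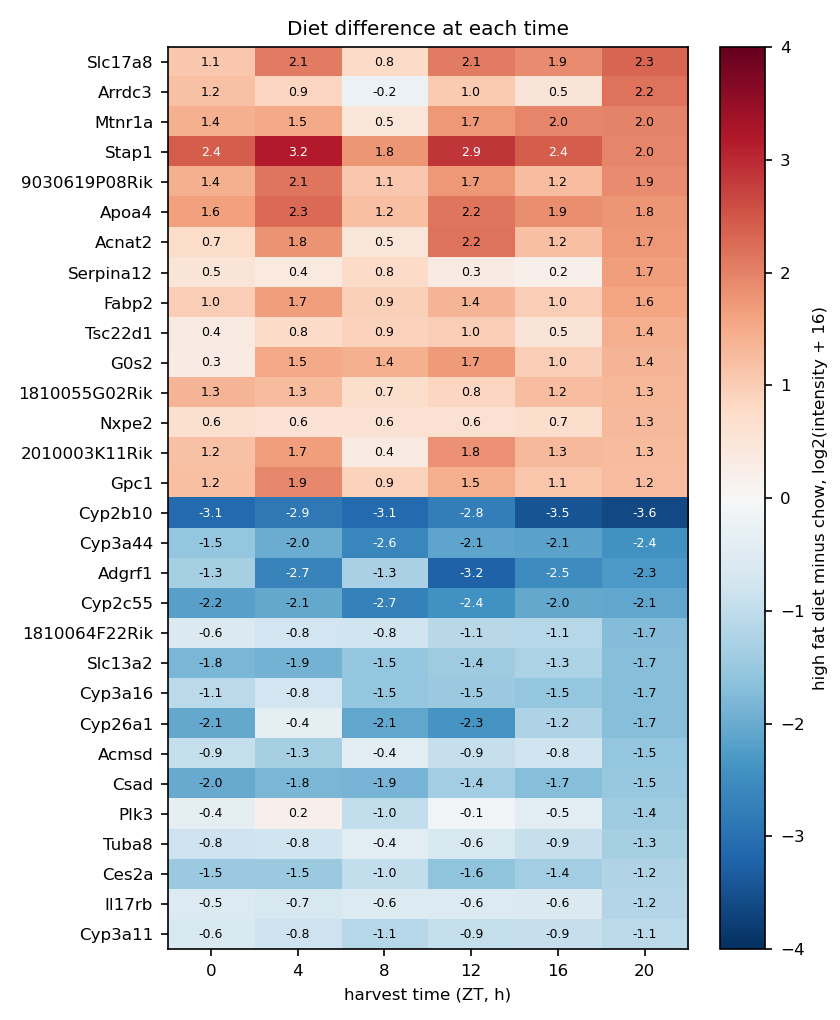
Diet differences (high fat diet minus chow, log2 scale, colour and number) of the 15 genes that rose most and the 15 that fell most at ZT20, at each of the 6 times on the horizontal axis. Cyp2b10 is negative throughout, with -3.62 at ZT20, and Arrdc3 is 2.16 at ZT20 but -0.25 at ZT8.

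Whether a diet difference at ZT20 departed from the mean of those at the other 5 times was tested in the same fit. A single gene passed, Arrdc3 (0.00717% of genes above the mean), and no gene passed below it (0%). At an unadjusted p under 0.05 there were 677 genes above (4.85%) and 683 below (4.89%), 9.74% in all. For Arrdc3 the difference of 2.16 at ZT20 exceeded the mean of 0.67 over the other times by 1.49 ± 0.26 (SE, limma adjusted p = 0.0491). Its differences were 1.19 at ZT0, 0.86 at ZT4, -0.25 at ZT8, 1.05 at ZT12 and 0.50 at ZT16, each ± 0.24. On chow Arrdc3 averaged 8.61 ± 0.54 (SD, n = 3) at ZT20, its lowest group mean, while on high fat diet it averaged 10.76 ± 0.27, above its levels of ZT12 and ZT16 on that diet. This call was lost in 28 of 53 alternatives, with an adjusted p of 0.223 without chow sample 3, 0.130 without high fat diet sample 2, 0.114 without chow sample 2, 0.0876 without high fat diet sample 3 and 0.68 without both samples of low weight.

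Per3 and other clock repressors lay close to the threshold. Per3 had a contrast of -0.84 ± 0.16, with a limma adjusted p of 0.0541 that missed the threshold, Nr1d2 of -0.86 ± 0.18 and Per2 of -0.69 ± 0.14, both with adjusted p = 0.0824; Per2 was named for its list. The diet difference of Per3 was 0.51 at ZT0, 0.73 at ZT4, 0.04 at ZT8, -0.24 at ZT12, -0.33 at ZT16 and -0.70 at ZT20, so high fat diet livers were higher in the early light phase and lower in the dark. That of Nr1d2 was 1.44 at ZT0 and -0.68 at ZT20, with -0.25 to 0.05 between. That of Per2 was 0.78 at ZT4, 0.65 at ZT8, -0.29 at ZT16 and -0.47 at ZT20. A contrast below the mean of the other times had an unadjusted p under 0.05 in 5 of 13 genes of the repressor list. The same held for 5 of 15 output genes, against 4.89% of all genes, and none of them passed after adjustment.

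**Figure D5:**
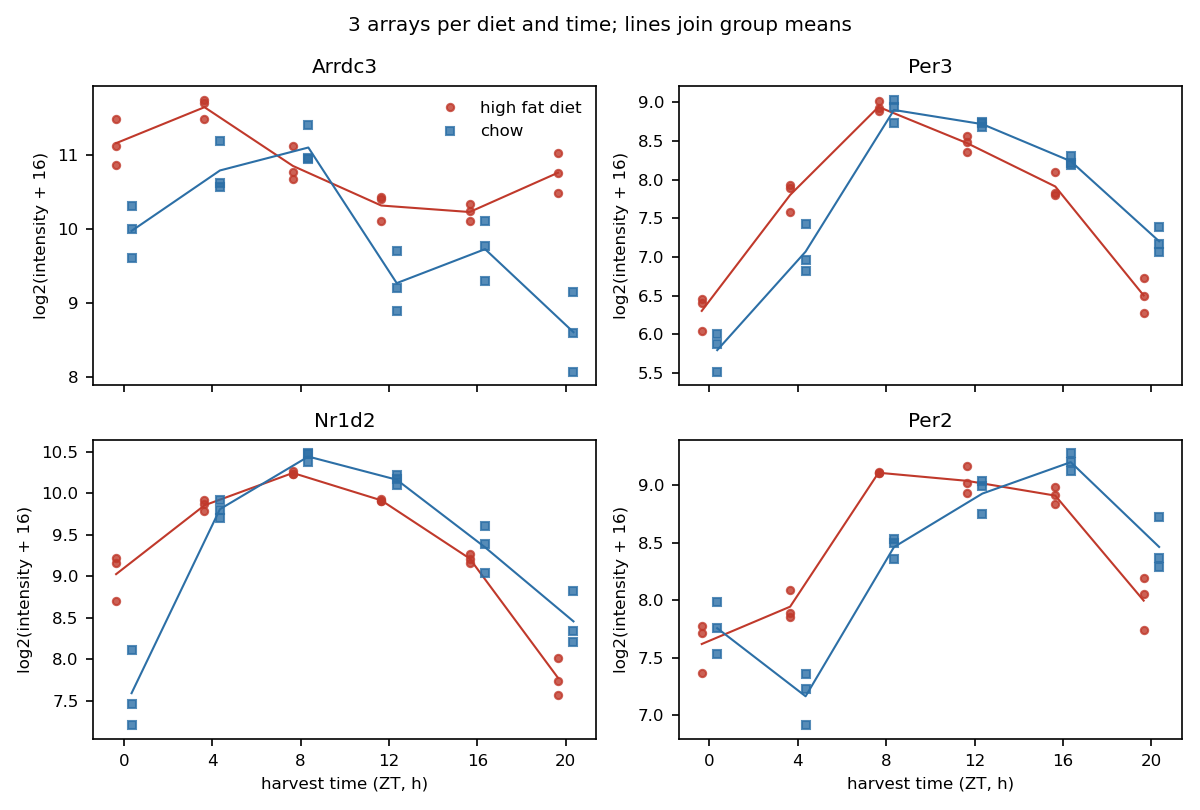
Levels of Arrdc3, Per3, Nr1d2 and Per2 as log2(intensity + 16) against harvest time in ZT hours, 3 arrays per diet and time, with high fat diet in red (circles, drawn slightly left) and chow in blue (squares); lines join group means. Arrdc3 stands apart most at ZT20, with means of 10.76 on high fat diet and 8.61 on chow, and the Per3 lines cross during the light phase.

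Among the 285 genes called at ZT20, 15 had the opposite sign on average over the other times; these were named after their values were seen. The 9 that rose at ZT20 were Ppard, Bub3, Slc49a4, Sec24d, Zbtb8a, Mdp1, Ube2g2, Ulk3 and Clint1, and the 6 that fell were Wnt16, Rpp38, Adgb, Dcpp1, Nr1d2 and Per3. For several the average over the other times was within its SE of 0, as for Clint1 (-0.006 ± 0.036), Bub3 (-0.008 ± 0.038) and Adgb (0.05 ± 0.06). That of Ube2g2 was further off, at -0.12 ± 0.04. None of the 15 passed the contrast with the other times after adjustment. Ppard, a nuclear receptor of fatty acids, had 9.38, 10.07 and 9.79 on high fat diet, against 9.32, 8.95 and 9.07 on chow, a difference of 0.64 ± 0.15. Its lowest high fat diet liver lay just above its highest chow liver. The difference of Ppard was -0.66 at ZT0, and its contrast with the other times was 0.78 ± 0.17 with a limma adjusted p of 0.0824. Sec24d, a coat protein of vesicles that leave the endoplasmic reticulum, had 9.78, 9.84 and 9.76 on high fat diet, against 9.39, 9.46 and 9.31 on chow, a difference of 0.41 ± 0.08. At the other times its differences ran from -0.19 to 0.13.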

How the data were processed

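The intensity per probe set and array was deposited by the authors, who used Affymetrix Expression Console 1.1.1 and PLIER 2.0, per the submitters' processing notes. How background and array-to-array scale were treated is not given in the sources used here. Deposited values were taken as they are, as log2(intensity + 16); array medians ran from 75.7 to 95.6, and the number of arrays limits the precision. Platform annotation paired 21789 of 35556 probe sets with 1 gene, 1621 with several and 12146 with none here; 99.6% of single-gene symbols were updated by entrez identifier. The brightest probe set stood for each of 19938 genes, and the 13956 above the 30th percentile of mean level (6.11) were tested.

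A limma 3.58.1 fit (R 4.3.3) gave each diet and time a mean over all 36 arrays, with 24 residual degrees of freedom. Contrasts were high fat diet minus chow at ZT20, and that difference minus its mean at the other 5 times. Calls needed a Benjamini-Hochberg adjusted p under 0.05. Lists (1052 symbols, 904 tested) are described by counts and medians, without a test. Groups came from the labels. The members and lists were chosen with earlier results of these data known. Named genes are the 15 highest and 15 lowest called differences, the called contrasts, up to 3 called genes of smallest p per list (or the smallest p where none passed), and every core clock gene tested; genes outside this rule were named after their values were seen. The fit was checked on simulated data. Alternatives covered scaling, offset, filter, probe sets, arrays in the fit, the replicate block, array weights, the variance prior and leaving out each array or time; 2 without arrays of low weight were added after seeing the data. No array pair within a group was identical.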

Additional observations from a re-analysis of the deposited data

Results flagged for a closer look

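Arrdc3 stood out by a difference between groups: its diet effect at ZT20 exceeded the mean effect at the other 5 times by 1.49 on the log2 scale, with an adjusted p of 0.0491 in limma. The effect at ZT20 itself was 2.16 and that over the other times 0.67. All 3 high fat diet livers lay above all 3 chow livers at ZT20, which bears on that time alone. The call of the contrast was lost in 28 of 53 alternatives, and its adjusted p in limma reached 0.68.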

How the results depend on the processing

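Of 106 named genes 74 were called at ZT20, and 38 kept the call in all 49 alternatives; 10 of the 32 others were called in some. Genes higher on high fat diet numbered 267 after quantile normalization, 79 with only the 6 ZT20 arrays and 395 with array weights; genes lower numbered 65 after median centring and 426 with array weights. Without 1 array they ran from 61 to 212 and from 52 to 132. Without both ZT20 arrays of low weight they were 34 and 62, and without the 4 lowest of all 51 and 91. For the contrast with the other times, quantile normalization gave 7 above and 4 below, array weights 16 and 19, and offsets of 1 or 64, no filter, the replicate block and both omissions of low-weight arrays 0 above. The filter at the 50th percentile gave 1 below. Without ZT0, ZT8, ZT12 and ZT16 in the mean, 2, 3, 1 and 4 were below, and without ZT8 and ZT16, 14 and 4 above. Without 1 array, 0 to 16 were above and 0 to 5 below. The Arrdc3 contrast ran from 1.07 to 1.76 over all alternatives. Differences near 0 that missed the threshold changed sign: Arntl was -0.0214 after quantile normalization and Cry1 and Csnk1d 0.00945 and 0.00609 after median centring. With array weights Slc4a1 was 0.0217, Arntl -0.0169, Rora -0.0106 and Csnk1e -0.0543. Without the 2 ZT20 arrays, or the 4 arrays, of low weight, Clock was -0.0255, Camp 0.0655, Slc4a1 0.0717, Arntl -0.0873, Rora -0.0245, Nr1d1 -0.163 and Csnk1e -0.108 (the same values in both). Without 1 array, Clock ran from -0.00432 to 0.184, Slc4a1 from -0.158 to 0.0172, Arntl from -0.0731 to 0.0991, Cry1 from -0.0979 to 0.0057, Nr1d1 from -0.0486 to 0.276, Bhlhe40 from -0.0762 to 0.303, Csnk1d from -0.092 to 0.014 and Csnk1e from -0.0792 to 0.096. The cause was not tested. Between samples of the same replicate number at ZT20, deviations from the group means correlated at -0.34, 0.35 and 0.16. With 3 arrays per group this cannot tell whether the numbers pair the samples, and the labels do not say. With the replicate block 176 genes were higher and 105 lower. The small number of arrays limits the precision.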

Other observations

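Several genes lay close to the threshold of the contrast between ZT20 and the other times without passing it, and those described here were chosen after their values were seen. Ficd, which modifies the chaperone BiP, had a contrast of 0.61 ± 0.12 (SE), the mannosyltransferase Alg2 of 0.55 ± 0.11, and Gmppb, which makes GDP-mannose, of 0.81 ± 0.16, each with a limma adjusted p of 0.0824. Arfgap3, of Golgi coat assembly, had 0.61 ± 0.13 and the coat genes Sec24d and Sec23b 0.42 ± 0.09 and 0.50 ± 0.11. Ficd had 6.860, 7.113 and 6.995 on high fat diet, against 6.521, 6.723 and 6.546 on chow at ZT20, a difference of 0.39. Its differences were -0.51 at ZT0 and -0.53 at ZT12, but 0.22 at ZT8. Alg2 had 8.49, 8.72 and 8.44 on high fat diet, against 8.24, 8.16 and 8.21 on chow, a difference of 0.35 at ZT20. The difference of Alg2 was -0.68 at ZT12 and 0.22 at ZT8. For both genes the diets did not overlap at ZT20, but neither difference there passed in limma (adjusted p = 0.0601 and 0.0624). None of these contrasts passed after adjustment. Genes of other roles were as close, such as Rpp38, Ppard and Per2. In the list of endoplasmic reticulum chaperones 7 of 28 genes had an unadjusted p under 0.05 above the mean of the other times. The same held for 9 of 34 proteasome subunits and 6 of 36 ribosome biogenesis genes, against 4.85% of all genes. The median diet differences at ZT20 were -0.02 (chaperones), 0.06 (proteasome) and -0.08 (biogenesis). Over the other times these medians were -0.12, -0.06 and -0.15. A count above that mean therefore does not by itself show a rise at ZT20.

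Lgr5, a receptor of pericentral hepatocytes, had a difference of 0.72 ± 0.12 at ZT20 and a contrast of 0.54 ± 0.13 with the other times (limma adjusted p = 0.131). Loxl4, a lysyl oxidase, had 0.88 and 0.83.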
